A study of Homo sapiens with 12 samples.

Results

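The comparison described here is between the 2 conditions sequenced with the Luciferase single guide RNA (sgRNA), condition B against condition A. It holds 6 of the 12 libraries of the series. All were polyA RNA libraries of HEK293T cells, a line derived from human embryonic kidney that carries a viral large T antigen. Cells received plasmids of the PX330-GFP type by polyethylenimine transfection, with the Luciferase sgRNA and Cas9 in 3 libraries and with the same sgRNA and no Cas9 in the other 3. RNA was extracted with Trizol and treated to remove DNA. Transfection, plasmid backbone and sgRNA were therefore common to both conditions, and Cas9 was the difference named in the sample labels. Sequencing depth differed between the conditions as well, as described below. The deposited columns name the conditions A and B only, and do not say which of them held Cas9, so every direction is given as condition B relative to A. The level of Cas9 was not analysed here and the labels were not checked against it. Genes entered the comparison when the mean of their values in A and B was 10 normalized reads or more, which 14087 of 26485 listed genes reached. The log2 difference is log2 of (B + 1) over (A + 1), where A and B are the authors' mean normalized reads.

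Luciferase is an insect reporter enzyme, and a guide against it is commonly used where no cut in the human genome is wanted. Cells that take up plasmid DNA can sense foreign nucleic acid. Sensors signal through the kinases TBK1 and IKBKE to the factor IRF3, which switches on IFNB1, CCL5 and the IFIT genes. Secreted interferon then acts through JAK1, STAT2 and IRF9, among others, on a wider set of interferon-stimulated genes, whose promoters often hold a repeated GAAA element. A separate pathway, the integrated stress response, slows translation when amino acids are scarce or the endoplasmic reticulum is strained, and acts on transcription through ATF4.

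Each deposited mean is an average over 3 libraries, from which the whole reads of each library were worked out. The libraries carry no replicate number, so they are called A1 to A3 and B1 to B3 in ascending order of size factor, and normalized reads are reads divided by that factor. Condition A had 5881889, 6410850 and 8242651 reads, and condition B had 19399375, 25099587 and 38076941. Every B library was deeper than every A library, so depth and condition cannot be told apart in these data. The labels do not say that replicates were separate cultures, so p-values measure only the spread between these libraries. HEK293T identity was checked on 17 genes typical of the line, such as PAX2. All 17 had a mean of 10 or more, and their summed level was 18082 to 19336 normalized reads in every library. The 18 blood and immune markers summed to only 135 to 164, with CD3D, CD3E, MS4A1, HBB, HBA2 and FCGR3A at 0. Of 10 markers of differentiated kidney cells 3 reached a mean of 10. UMOD of that list was at 0 in all libraries, while LRP2, an endocytic receptor, was at 462 mean normalized reads in A and 468 in B.

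Library A1 stood apart from the other 5. Among 11623 genes with a mean of 50 or more, A1 was at least 2-fold below the median of the other libraries for 381 genes and at least 2-fold above it for 21. B3 came next, with 81 genes at least 2-fold above, and no other library had more than 5 in either direction. The SD of the log2 ratio between 2 libraries was 0.38 to 0.58 for pairs with A1. It was 0.17 for B2 with B3 and 0.18 for A3 with B1, so the closest partner of A3 was a library of the other condition. A first principal component with 70.8% of the variance ran from A1 to B3. Values without A1 are therefore given beside those with all 6 libraries for the gene lists and for the genes that A1 moved most.

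**Figure D1:**
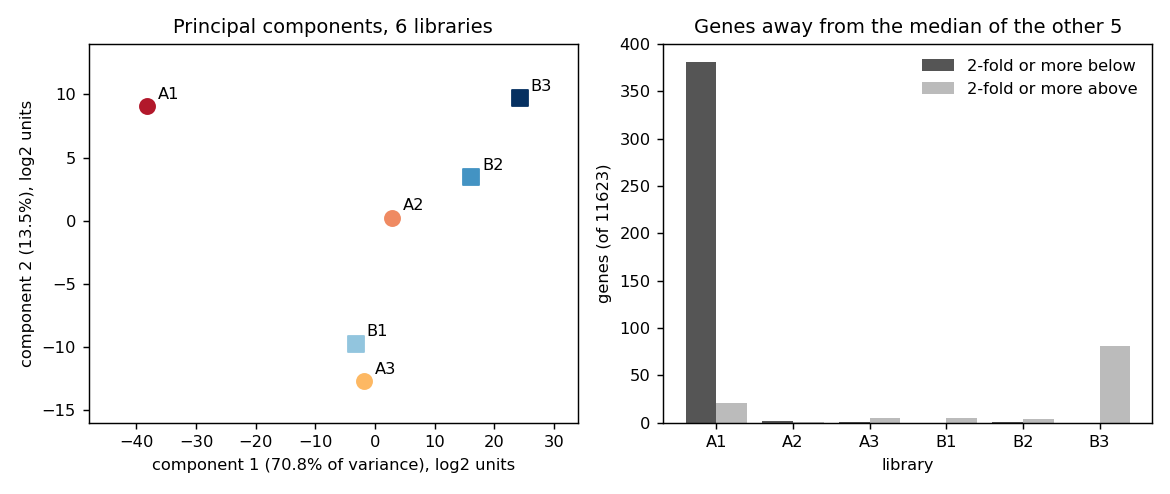
Left, the 6 Luciferase libraries on the first 2 principal components of log2 normalized reads (circles condition A, squares condition B). Right, bars count genes at least 2-fold below or above the median of the other 5 libraries, of 11623 genes with a mean of 50 or more. A1 lies alone on the left with 381 genes below, and A3 and B1 lie side by side.

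Library differences followed base composition. Transcript GC content was found for 13775 of the 14087 genes. Across these genes Spearman's rho between GC content and the log2 difference was −0.70, and −0.51 without A1, as a description with no p since all genes share the same libraries. By library, rho of the deviation from the mean of 6 was 0.70 for A1, −0.66 for B2 and −0.73 for B3, and lay between −0.11 and 0.29 for A2, A3 and B1. Genes were placed in 10 bins of equal size by GC content. In the bin with the lowest GC content (31.4% to 40.4%), the median log2 difference was 0.38, and 0.22 without A1. In the bin with the highest (62.4% to 76.8%) it was −0.15, and −0.07 without A1. Gene groups that are poor in GC thus sat higher in condition B on this scale, and the values below are also given after the median of each GC bin was subtracted. Transcript length had a rho of 0.04 with the log2 difference.

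**Figure D2:**
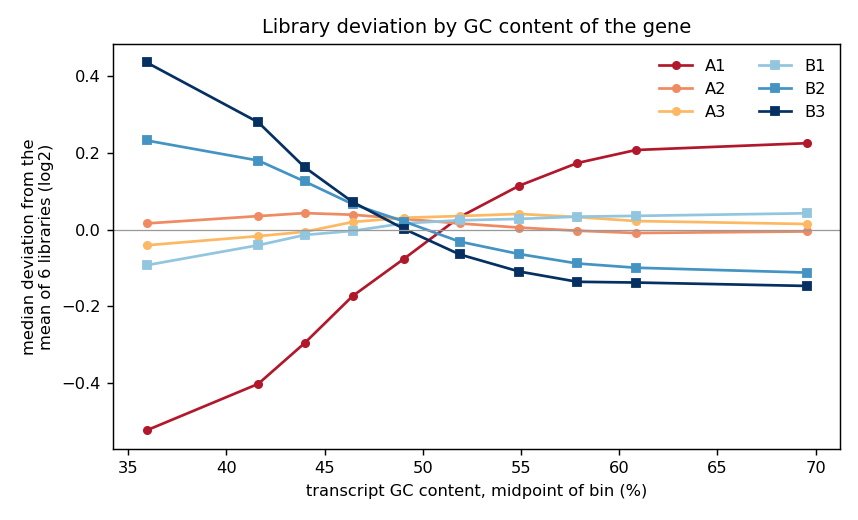
Median deviation of each library from the mean of the 6 libraries (log2, vertical) for 10 bins of genes ordered by transcript GC content (%, horizontal). A1 rises with GC content while B2 and B3 decline, and A2, A3 and B1 stay near 0.

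Over all genes the conditions were close. The median log2 difference was −0.0052 with an SD of 0.27 across genes, and 95.7% of genes lay within a 1.5-fold difference on this scale. The authors' deposited DESeq test called 0 of 20194 genes at an adjusted p under 0.05, with a smallest adjusted p of 0.164, and had 246 genes with an unadjusted p under 0.05 (0.302% of genes tested lower in B and 0.916% higher). limma on the recovered libraries also called 0 of 14018 genes at an adjusted p under 0.05, with a smallest adjusted p of 0.207, against 1345 genes with an unadjusted p under 0.05 (4.09% lower and 5.51% higher). All 3 libraries of B lay below all 3 of A for 1339 genes (9.55%) and above them for 904 genes (6.45%). A difference past 1.5-fold was seen for 151 genes lower in B (1.07%) and 451 higher (3.2%). Without A1 these were 105 (0.746%) and 183 (1.3%). Without B3 they were 167 and 152, and without A2 they were 226 and 1011, so A1 was not the only library that moved them. Past a 2-fold difference there were 19 genes in each direction (0.135% each). Since no gene passed either test, the genes below are described by their values and by whether their libraries overlap. The limma adjusted p of each gene named below was 0.207 for OASL, 0.219 for CCL5, 0.422 for IFIT2 and 0.455 or more for all others with recovered libraries.

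Genes of the antiviral interferon response came first in both tests, although none passed, and all of these were lower in condition B. CCL5, OASL, IFIT2 and IFIT3 had the 4 smallest p in the authors' table. Their ratio of (A + 1) over (B + 1) in mean normalized reads was 2.55 to 3.85. With DNAH17 they also had the 5 smallest p in limma. CCL5 encodes a chemokine that draws immune cells and is an early target of IRF3. It had 36.3, 43.3 and 29.1 normalized reads in A1, A2 and A3 and 10.2, 7.45 and 8.44 in B1, B2 and B3. The lowest A library was nearly 3 times the highest B library, and A1 lay between A2 and A3. The log2 difference of −1.94 was the most negative of all 14087 genes, the same without A1, and the authors' deposited test put its adjusted p at 0.164. These values came from few reads, 22 to 28 per library in A and 19 to 33 in B. The gene lies at chr17:35871491-35880793 on the minus strand (GRCh38).

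OASL, a member of the oligoadenylate synthetase family, was at 56.2, 63.4 and 55.8 in the A libraries and 19.3, 20.4 and 18.7 in the B libraries. The spread within each condition was small, 58.4 ± 4.30 in A and 19.4 ± 0.861 in B (SD, n = 3), and the difference of −1.54 was −1.57 without A1. Its adjusted p was also 0.164 by the test the authors deposited. OASL lies at chr12:121019111-121039242 on the minus strand.

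The IFIT genes encode proteins that bind foreign RNA and block its translation, and they form a cluster on chromosome 10. IFIT2 (chr10:89283694-89309276) was at 64.4, 83.5 and 69.1 in A and 21.8, 28.997 and 30.96 in B, a log2 difference of −1.38. IFIT3 (chr10:89327894-89340971) was at 67.7, 77.3 and 50.9 in A and 23.9, 31.7 and 19.4 in B, a difference of −1.35. IFIT1 (chr10:89392546-89406486) was at 185, 275 and 229 in A and 98.0, 147 and 124.6 in B, a difference of −0.89, or −1.03 without A1. For these 3 genes no A library overlapped any B library. The last member of the cluster, IFIT5 (chr10:89414586-89421001), went the other way, at 74.3, 179 and 160 in A and 157, 199 and 213 in B. Its difference of 0.46 was 0.16 without A1, the library in which it was lowest. All 4 genes lie on the plus strand, and reads shared among such related genes could be split between them or left uncounted.

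ISG15, a ubiquitin-like protein that is attached to other proteins in infected cells, was at 254, 114 and 136 in A and 76.1, 67.0 and 66.0 in B. A1 was about 2 times the other A libraries, and the log2 difference of −1.26 was −0.83 without it. IFI6, an interferon-induced membrane protein, was at 354, 227 and 229 in A and 149, 158 and 130 in B, with a difference of −0.89, and −0.64 without A1. For both genes all B libraries lay below all A libraries, with A1 the highest of the 6.

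The promoters of several of these genes share the GAAA repeat bound by interferon-activated factors, and stretches of 4 of them are shown because their genes were among the lowest in B. Sequences are from RefSeq (GRCh38.p14), read 5′ to 3′ on the strand of the gene, all lying before the RefSeq start of transcription. Capitals mark matches on either strand to GAAA, any 2 bases and GAAA again, with overlapping matches run together.
IFIT1, chr10:89392498-89392547, plus strand: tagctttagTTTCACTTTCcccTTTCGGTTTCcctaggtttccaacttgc
IFIT3, chr10:89327832-89327891, plus strand: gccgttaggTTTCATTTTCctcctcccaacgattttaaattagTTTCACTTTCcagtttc
ISG15, chr1:1013372-1013421, plus strand: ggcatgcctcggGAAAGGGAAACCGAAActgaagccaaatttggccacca
IFI6, chr1:27672268-27672357, minus strand: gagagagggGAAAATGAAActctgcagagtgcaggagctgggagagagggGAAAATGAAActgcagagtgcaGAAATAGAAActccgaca

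IFIT1, IFIT3 and ISG15 each hold 2 matches in the stretch shown and IFI6 holds 3. Of the 39 genes in the list of interferon-stimulated genes, 32 had a RefSeq promoter of 250 bases before to 50 after the start, and 24 of these (75%) held the element. Among all 35116 promoters the share was 3.57%. Among measured members, the median log2 difference was −0.40 for the 18 with the element and −0.15 for the 3 with a promoter that did not hold it. HERC5 and IFIT5 held the element too and were not lower in B. A match is a string of letters and not a measured binding site.

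The list as a whole had 25 of 39 members at a mean of 10 or more. Its median log2 difference was −0.34, against −0.0052 over all genes, with the middle of the list between −0.64 and −0.10 (quartiles). In B, 20 members were lower and 5 higher, where 51% of all genes were lower. B libraries lay below A without overlap for 14 members and above for 0, against 9.55% and 6.45% of all genes, and 8 members were lower past 1.5-fold against 1.07%. Without A1 the median was −0.22 with 21 lower and 4 higher, and after subtraction of GC bin medians it was −0.42. Members of smaller difference, chosen after their values were seen, included BST2, a tether that holds virus particles at the cell surface. It was at 77.7, 63.4 and 53.3 in A and 35.03, 50.5 and 38.4 in B (−0.64, and −0.49 without A1). The exonuclease ISG20 was at 28.1, 26.3 and 23.0 in A and 16.8, 16.5 and 17.7 in B (−0.58), and the ubiquitin ligase DTX3L at 33.0, 32.5 and 29.1 in A and 19.8, 20.4 and 25.1 in B (−0.52). None of these 3 overlapped between conditions. Other members differed less. LGALS3BP, a secreted glycoprotein with 1407 mean normalized reads in A and 1202 in B, differed by −0.23. USP18, which removes ISG15 from proteins, differed by −0.10 (276 and 258). HERC5, the ligase that attaches ISG15, was at 107, 179 and 174.6 in A and 151, 200 and 225 in B, with overlap between conditions.

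The other 14 members had means under 10, at most 6.12, and gave no fold. Among them OAS3 was at 1.65, 6.19 and 3.64 in A and 0, 0.784 and 1.54 in B, and MX1 at 8.26, 4.64 and 7.27 in A and 3.05, 2.74 and 5.63 in B. XAF1 was at 0 in all 6 libraries. Many classical interferon-stimulated genes were therefore near the detection limit in these cells in both conditions. The interferon gene IFNB1 itself was at 1.65, 0 and 0 in A and 0, 0.392 and 0 in B, too few reads to compare.

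**Figure D3:**
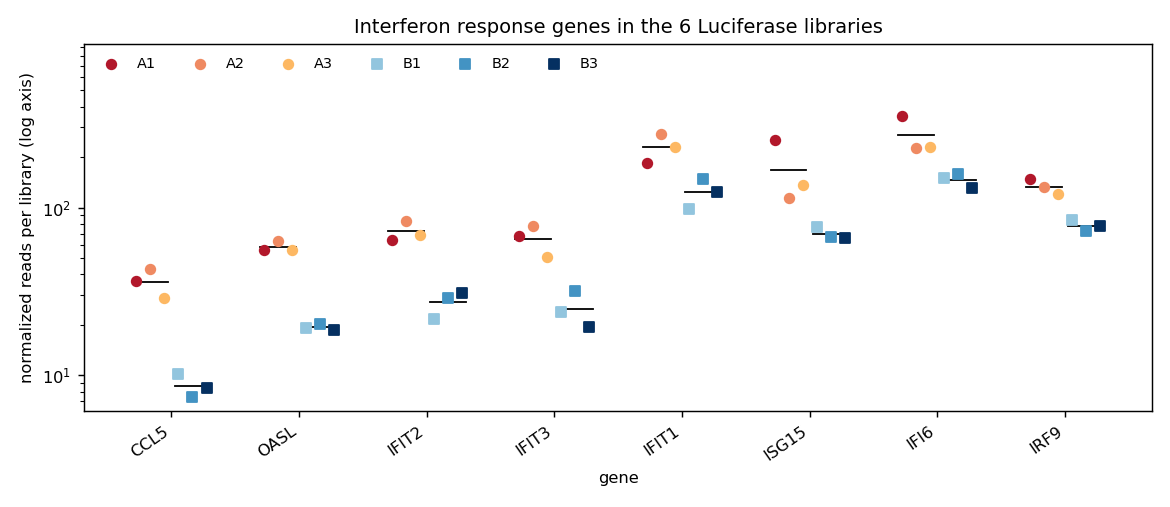
Normalized reads (log axis) of 8 interferon response genes in the 6 libraries, circles for condition A and squares for condition B, with a bar at each condition mean. In every gene shown the 3 B libraries lie below the 3 A libraries, by the widest gap in CCL5 and OASL.

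The receptor and signalling genes upstream did not share one direction. Of 11 measured, 3 were lower and 8 higher in B, with a median of 0.13, and 0.00035 without A1. IRF9, the DNA-binding partner of STAT2, was at 147, 133 and 120 in A and 84.3, 72.1 and 78.0 in B, a difference of −0.76 (−0.69 without A1). It is itself interferon-inducible, and its libraries did not overlap. The kinase JAK1 lay on the other side, at 699, 881 and 864 in A and 909, 980 and 965 in B (0.22, and 0.12 without A1). In these bulk libraries of transfected cultures a lower level per cell and fewer expressing cells cannot be told apart.

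Sensors and adaptors for foreign nucleic acid had a median of −0.04 over 16 measured members, with 10 lower and 6 higher, and −0.06 without A1. TBK1 had the largest difference, 0.38, or 0.19 without A1, with 129 normalized reads in A1 and 181 to 267 in the other 5 libraries, so it was lowest in A1 and otherwise overlapped. Of 7 members under a mean of 10, the RNA sensor IFIH1, also an interferon target, came nearest to the threshold, at 9.91, 17.0 and 13.3 in A and 4.57, 7.84 and 3.58 in B, without overlap.

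Beyond CCL5, the NF-kappaB genes and cytokines gave no common direction once A1 was set aside. Their median was −0.15 over 12 measured members with 10 lower, and −0.01 without A1, with 7 lower and 5 higher. RELB was at 197 in A1 and 106 to 134 elsewhere. REL was at 81.0 in A1 and 128 to 236 elsewhere. A1 was thus the extreme library for both, on opposite sides. Genes of antigen presentation by MHC class I had 13 of 15 members lower, where 51% of all genes were lower. Of them 4 did not overlap between conditions (9.55% of all genes lay lower in this way). The list had a median of −0.15, or −0.12 without A1. Subtraction of GC bin medians left −0.04. TAPBP, a loading chaperone, was at 307, 317 and 332 in A and 295, 252 and 263 in B. HLA-B was at 3303, 2705 and 2767 in A and 2672, 2456 and 2288 in B, with a gap between the conditions that was small beside the distance of A1 from A2 and A3.

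Targets of ATF4 were also lower in condition B on average, and here the median difference rested largely on A1. Of its 29 members 28 were measured, 24 lower and 4 higher, and their median was −0.39. Without A1 the median was −0.05, with 15 lower and 13 higher, near the 51% and 49% of all genes. A1 was the highest of the 6 libraries for 23 of 27 members with recovered libraries, a place it held for 32% of all genes. Still, B lay below A without overlap for 9 of these 27 members and above for 0, against 9.55% and 6.45% of all genes. After subtraction of GC bin medians the list stood at −0.29. CHAC1, which breaks down glutathione, was at 1011 in A1, 292 in A2 and 155 in A3, and at 190, 156 and 302 in B. A2 and A3 lay within or near the range of B, and the difference of −1.17 became −0.05 without A1. SESN2, a sensor of leucine, was at 5951 in A1 and 1886 to 2499 in the other 5, with no overlap between conditions. DDIT3, a pro-death factor counted with the unfolded protein response, was at 752 in A1 and 225 to 326 elsewhere, and PCK2, a mitochondrial enzyme, at 1424 in A1 and 549 to 636 elsewhere. JDP2 of the list was at 408 in A1 and no higher than 154 elsewhere. INHBE and G0S2, which are not on the list, also stood out in A1, at 144 and 309, with no other library above 47.9 and 114.

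Some members of the list kept a gap without A1. GDF15, a secreted stress cytokine and the gene with the largest difference in the list, was at 449, 215 and 238 in A and 129, 113 and 121 in B. Its difference was −1.30 with all libraries and −0.90 without A1. PPP1R15A, which restores translation after stress by directing a phosphatase to its target, was at 1880, 1214 and 1274 in A and 966, 790 and 879 in B, −0.73 with all libraries and −0.50 without A1. ATF3 was at 3856, 1898 and 1702 in A and 1454, 1307 and 1563 in B, a difference of −0.79, or −0.32 without A1. For these 3 genes the libraries of the conditions did not overlap. ATF4 itself was at 12257 mean normalized reads in A and 10643 in B in the authors' table (−0.20). Its reads per library were recovered for A only, 12731, 12030 and 12010.

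Genes of the unfolded protein response had a median of −0.08 over 27 members, 17 lower and 10 higher, and −0.03 without A1. The 25 targets of p53 had a median of −0.06, and 0.0042 without A1. CDKN1A, the inhibitor of cell cycle kinases, was at 2503, 1748 and 1722 in A and 1387, 1152 and 1112 in B. Its difference was −0.71, and −0.51 without A1, with no overlap. SESN2, also on that list, differed by −0.80, and by −0.21 without A1. HEK293T cells carry a T antigen that binds p53, which limits what this list can show. CCNG1 lay on the other side, at 565, 710 and 721 in A and 690, 1018 and 1289 in B (0.59, and 0.48 without A1), with B1 inside the range of A.

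**Figure D4:**
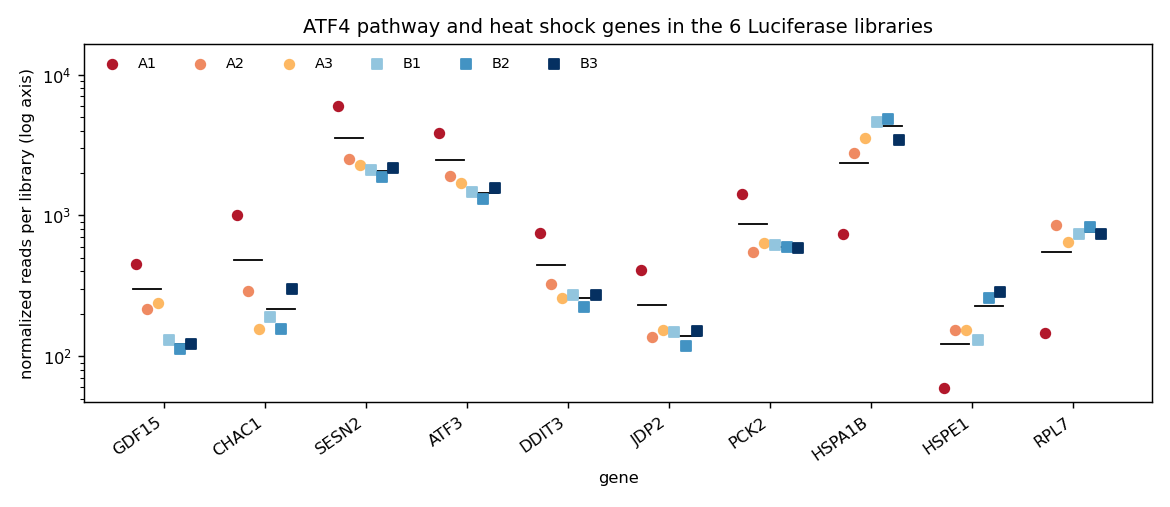
Normalized reads (log axis) of 7 ATF4 pathway genes, 2 heat shock genes and RPL7 in the 6 libraries, circles for condition A and squares for condition B, with a bar at each condition mean. A1 is the highest library for the 7 ATF4 pathway genes and the lowest for HSPA1B, HSPE1 and RPL7, and GDF15 alone of these genes has a clear gap between A2 and A3 and the B libraries.

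The genes highest in condition B were of another kind. Of the 15 with the largest differences among genes with a mean of 50 or more, A1 was the lowest library for 14 and B3 the highest for 14. GC content was found for 14 of the 15, and was 34.3% to 42.6%, against a median of 50.4% over all genes. EEF1E1, a scaffold protein of the tRNA synthetase complex, had the largest difference of all genes, 1.499, or 1.28 without A1. It was at 21.5, 40.2 and 35.2 in A and 41.6, 84.6 and 153 in B, so B1 lay just above A2 and the B libraries spanned nearly 4-fold. CEP290, a gatekeeper of the primary cilium, was at 85.9, 122 and 138 in A and 184, 235 and 331 in B (1.11, and 0.93 without A1). CEP290 did not overlap between conditions. TATDN1 was at 36.3, 66.5 and 60.6 in A and 62.4, 120 and 170 in B (1.10, and 0.88 without A1), and CAPZA2, which caps actin filaments, at 142, 243 and 251 in A and 216, 489 and 591 in B (1.025, and 0.81 without A1). In these 2 genes B1 lay among the A libraries. PIK3CA, a lipid kinase subunit, was at 14.9 in A1 and 52.1 to 113 elsewhere, and its difference of 0.99 was 0.58 without A1. POT1, which caps telomeres, showed the same order, with 41.3 in A1 and 109 to 262 elsewhere (0.98, and 0.62 without A1).

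RWDD2A and CLHC1 were higher in every B library than in every A library. RWDD2A was at 19.8, 54.1 and 48.5 in A and 86.8, 81.5 and 73.4 in B (0.96, and 0.64 without A1). CLHC1 was at 11.6, 12.4 and 9.70 in A and 22.8, 26.3 and 35.6 in B, and its difference of 1.26 was 1.28 without A1. Both had a transcript GC content under the median of all genes, 42.6% for RWDD2A and 38.2% for CLHC1.

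Several large groups of cell cycle and maintenance genes shared this tilt towards B. Repair and checkpoint genes for DNA double-strand breaks had a median of 0.33, with 41 of 47 higher. B lay above A without overlap for 9 of 45 and below for 2, against 6.45% and 9.55% of all genes. Of mitosis and kinetochore genes 39 of 46 were higher, at a median of 0.36, and of centrosome and cilium genes 37 of 46, at 0.30. Nuclear pore and transport genes stood at 0.20, and 33 of 41 were higher. Without A1 the 4 medians were 0.15, 0.17, 0.20 and 0.06. After subtraction of GC bin medians they were 0.10, 0.13, 0.07 and 0.05. The median GC content of the 4 lists was 42.9%, 40.7%, 42.1% and 45.3%. A1 was the lowest library for 82.2%, 71.7%, 67.4% and 78% of their members, against 37.5% of all genes.

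Single members gave the same order of libraries. SMC6, a subunit of a complex that holds chromosomes during repair, was at 142, 252 and 242 in A and 239, 353 and 487 in B (0.76, and 0.54 without A1). The helicase BRIP1 was at 160, 269 and 242 in A and 246, 392 and 469 in B (0.72, and 0.53 without A1). B1 lay within the range of A for both. CDK1, the kinase that drives mitosis, was at 301, 329 and 291 in A and 324, 538 and 736 in B, and its difference of 0.79 was 0.78 without A1. A1 was not apart in CDK1, while B2 and B3 were high. The kinetochore genes CENPK, SGOL2 and CASC5 differed by 0.76, 0.99 and 0.92, and by 0.58, 0.80 and 0.65 without A1. Of these, CENPK alone had no overlap, at 51.2, 88.1 and 71.5 in A and 92.4, 123 and 144 in B. IPO7, an import receptor, was at 651 in A1, 1056 to 1265 in A2, A3 and B1, and 1633 and 2223 in B2 and B3 (0.72, and 0.49 without A1). The promoters of 26 of 39 mitosis genes (66.7%) held TTTGAA, the core of a cell cycle element, on either strand, against 15.2% of all promoters. The median log2 difference of these 26 genes was 0.41 beside 0.26 for the 13 without it, both without subtraction of GC bin medians. Replication genes of S phase did not share the tilt. Their median was 0.04 over 44 members, 25 higher and 19 lower, and −0.0014 without A1, with a median GC content of 47.7%.

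Heat shock chaperones had a median of 0.26, with 31 of 42 higher in B, 6 of 39 without overlap above A and 1 below, against 6.45% and 9.55% of all genes. The median was 0.09 without A1 and 0.09 after subtraction of GC bin medians. HSPA1B, the stress-inducible HSP70, was at 737 in A1, 2793 in A2 and 3520 in A3, and at 4592, 4808 and 3437 in B (0.86, and 0.44 without A1). A1 was several-fold below the rest, while A3 lay above B3, and HSPA1B is GC-rich at 58.7%. Reads of the near-identical HSPA1A and HSPA1B could be split between them or left uncounted. HSPE1, the mitochondrial cochaperonin, was at 59.5, 155 and 154 in A and 131, 260 and 288 in B (0.88, and 0.55 without A1). HSPA4L was at 169, 295 and 262 in A and 271, 436 and 558 in B (0.80, and 0.60 without A1). In both, B1 lay within A and B2 and B3 above it. Of 40 promoters of the list, 8 (20%) held the heat shock element (GAA, any 2 bases, TTC, any 2 bases, GAA, on either strand), against 0.49% of all promoters.

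**Figure D5:**
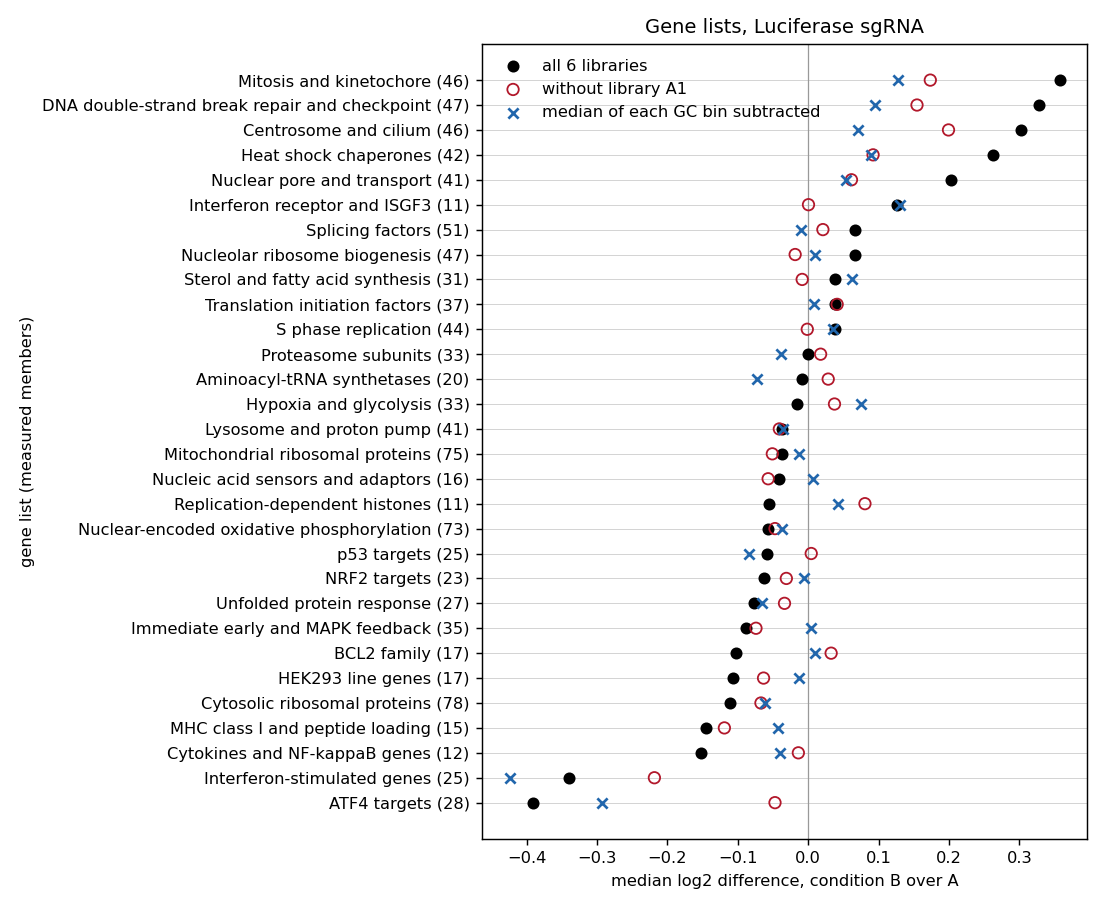
Median log2 difference (B over A, horizontal) of 30 gene lists with at least 10 measured members (number in brackets). Filled points use all 6 libraries, open circles leave out A1 and crosses subtract the median of each GC bin. Interferon-stimulated genes stay below 0 on all 3 scales, ATF4 targets come to −0.05 without A1, and mitosis, repair and centrosome genes come closer to 0 on both other scales.

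The housekeeping lists lay close to 0. The median of cytosolic ribosomal proteins was −0.11, 57 of 78 lying lower in B, and −0.06 after subtraction of GC bin medians, although reads were recovered for 54 of them only and many have processed copies elsewhere. RPL7 was at 147 in A1 and 651 to 849 in the other 5 libraries, and its difference of 0.48 was 0.03 without A1. Mitochondrial ribosomal proteins had a median of −0.04, oxidative phosphorylation −0.06, proteasome subunits −0.0002, splicing factors 0.07, translation initiation factors 0.04, sterol and fatty acid synthesis 0.04 and lysosomal genes −0.04. Immediate early genes had a median of −0.09 and NRF2 targets −0.06. Without A1 the medians of these 10 lists lay between −0.074 and 0.041. Among them HMOX1, which degrades haem, was at 1416, 1130 and 1255 in A and 1080, 910 and 927 in B (−0.38, and −0.29 without A1). FOSL1, an AP-1 subunit, was at 102, 74.2 and 95.8 in A and 73.6, 56.8 and 55.0 in B (−0.55, and −0.45 without A1). Neither overlapped, but B1 was within 1 read of A2 for FOSL1.

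Outside the lists, a few genes lay among those with the smallest p in either test without A1 standing apart. DNAH17, an axonemal dynein heavy chain, was at 185, 176 and 132 in A and 83.8, 72.5 and 82.1 in B, a difference of −1.04, and −0.95 without A1. SCARA5, a ferritin receptor, was at 52.9, 47.9 and 36.4 in A and 21.3, 19.98 and 18.9 in B, a difference of −1.15, and −1.03 without A1. ANKRD1, a transcriptional cofactor induced by YAP, was at 240, 209 and 250 in A and 152, 135 and 142 in B (−0.70). CBX6, a Polycomb protein, was at 4966, 4720 and 5103 in A and 4047, 3658 and 3585 in B (−0.39). In each of the 4 the conditions did not overlap and all B libraries were lower.

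A few structural noncoding RNAs without a polyA tail showed a pattern that crossed the conditions. RMRP, the RNA of a ribonuclease complex, was at 0, 1.55 and 234 in A and 123, 2.35 and 0.768 in B. RPPH1, the RNA of ribonuclease P, was at 1.65, 3.09 and 355 in A and 170, 5.09 and 4.35 in B. RN7SK was at 3.30, 3.09 and 221 in A and 143, 4.31 and 2.05 in B. The ribosomal precursor RNA45S5 was at 4.96, 12.4 and 182 in A and 101, 12.5 and 7.68 in B. In all 4, exactly A3 and B1 were high, the closest pair of libraries across the conditions. RN7SL1 of the signal recognition particle was highest in the same pair, at 360 and 163, against 14.1 to 65.8 in the other 4. RMRP and RPPH1 counted among the 15 lowest differences of genes with a mean of 50 or more, −0.89 and −0.996. These values rested on A3 in condition A and on B1 in condition B. On the log scale limma gave 0.10 and 0.17, of the opposite sign. In the 6 libraries of the 6T sgRNA, RMRP was at 2.39 to 9.10. RMRP, RPPH1 and RN7SK therefore separate libraries and not conditions here. What sets A3 and B1 apart was not tested.

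Depth bore on detection. Reads were present in B and at 0 in A for 1675 genes, and the reverse for 276. These were rare transcripts, at most 3.69 mean normalized reads in B (LOC100128568) and 2.72 in A (LOC221946). When reads of B were thinned to the mean depth of A, the counts were 856 and 761. Members just inside the threshold had values near 0. The 5 genes with means nearest above it had log2 differences of −0.20 to 0.19, and the 4 genes nearest below it had −0.44 to 0.50.

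Whether the Luciferase comparison differed from the same comparison under the 6T sgRNA was tested as an interaction over all 12 libraries, with the limit that the order of conditions in the 2 tables is not stated. limma called 0 of 13847 genes at an adjusted p under 0.05 (smallest adjusted p = 0.483), against 1309 genes with an unadjusted p under 0.05. The smallest p belonged to GPR27, an orphan receptor, whose log2 difference was −0.29 under the Luciferase and 0.67 under the 6T sgRNA (interaction −0.96, SE 0.19, limma adjusted p = 0.483). PPP1R14B, PPP1R35 and CHCHD10 followed, with −0.08, −0.09 and 0.05 under the Luciferase and 0.75, 0.61 and 0.65 under the 6T sgRNA. In these 3 genes the Luciferase libraries overlapped, so the values came from the 6T side. LOC100506127 had the opposite signs, 0.28 and −0.36. IFIT2 differed by −1.38 under the Luciferase and −2.96 under the 6T sgRNA, a fitted interaction of 1.67 on limma's scale with an SE of 0.49 and a limma adjusted p of 0.483. OASL differed by −1.54 and −2.08, with an interaction of 0.79 and an SE of 0.58. The interaction was also positive for IFIT3 (0.80, SE 0.60) and IFIT1 (0.22, SE 0.31). It was negative for ISG15 (−0.78, SE 0.43), IFI6 (−0.59, SE 0.24) and IRF9 (−0.27, SE 0.28). The interaction thus had no common sign among these genes. Under the 6T sgRNA the log2 difference was −1.98 for IFIT3, −1.08 for IFIT1, −0.33 for ISG15, −0.28 for IFI6 and −0.49 for IRF9. The interferon genes with an interaction given here were therefore lower in B under both sgRNAs, while IFIT5 differed by 0.46 and 0.01.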

How the data were processed

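Members and gene lists were chosen with earlier results of these data known. Per the submitters' processing notes, the authors used STAR, HTSeq and DESeq with build hg38. Versions, and whether counting used strand, are not given in the sources used here, so overlapping and antisense genes are uncertain. Per the file headers, the deposited signal values are mean normalized read counts for conditions A and B, the ratio column is the authors' fold change, the log2 column its log2, and the p-value columns the authors' DESeq p and adjusted p. Whole reads per library were searched from the deposited 3-library means, and a single solution was found for 99.95% (A) and 99.65% (B) of genes above 0. Among genes with a mean of 10 or more, 69 had none in B (12.0% to 12.1% of reads there). Their B means exceeded the search limit of 9999 used there, so they were not searched. In A, where the limit was 30000, 9 of these 69 had none (3.32% to 3.41% of reads). All 69 stayed in the log2 difference and out of the limma fit and the overlap counts. limma 3.58.1 (R 4.3.3) was fitted with a trend to log2(normalized reads + 1) of genes with a mean of 10 or more. Adjustment was by Benjamini-Hochberg. The fit was also run on simulated data, which held no outlying library and no trend with GC content. Those runs therefore do not show how the fit behaves with a library such as A1 or with the trend in base composition. Interaction used all 12 libraries. Transcript GC content came from GENCODE 29 (GRCh38). Lists (35, with 1153 genes) were described by counts and medians only. Named genes were the 15 highest and 15 lowest log2 differences with a mean of 50 or more, the 10 smallest p of each test, 3 members per list by absolute difference among those with a mean of 50 or more (10 or more where fewer than 3), and the 5 smallest interaction p. Not all are named, and IFIT5, BST2, ISG20, DTX3L, HERC5, USP18, LGALS3BP, JDP2, PPP1R15A, PCK2, ATF4, RPL7, RN7SK, RN7SL1, RNA45S5 and the members under a mean of 10 were chosen after their values were seen. Alternatives were other pseudocounts, minimum means, size factors, thinning, each library left out and, added after seeing the data, GC bin medians subtracted.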

Additional observations from a re-analysis of the deposited data

How the results depend on the processing

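Both tests called 0 genes in every setting run, the authors' test also at an adjusted p under 0.1 (0.164 is its smallest value) and limma with each library left out, while limma genes with an unadjusted p under 0.05 ranged from 287 (without B3) to 2344 (without B1). Counts past a fold moved with the choices, and the causes were not tested. For lower past 2-fold, higher past 2-fold, lower past 1.5-fold and higher past 1.5-fold in B, a pseudocount of 5 gave 11, 7 and 93 for the first 3, a minimum mean of 1 gave 172, 126, 663 and 799, and a minimum mean of 50 gave 5, 5 and 33 for the first 3. Leaving out 1 library gave 19 to 37, 5 to 105, 105 to 229 and 152 to 1011, and GC subtraction left 5 higher past 2-fold and 87 higher past 1.5-fold. The median of interferon-stimulated genes was −0.23 at a minimum mean of 50, −0.42 after GC subtraction and −0.37 to −0.22 with a library left out. That of ATF4 targets ranged from −0.51 to −0.047 with a library left out (the last without A1), and GC subtraction left 0.13 for mitosis and 0.071 for centrosome genes. Of 68 named genes, 8 turned direction under some setting in limma, with a library left out ranging from −1.79 to 2.499 (RMRP), −1.46 to 2.43 (RPPH1), −1.97 to 1.66 (RN7SK), −1.01 to 1.09 (RN7SL1), −1.17 to 1.36 (RNA45S5), −0.66 to 0.024 (PCK2), −0.22 to 0.015 (PPP1R14B) and −0.027 to 0.12 (CHCHD10). RMRP was −0.18 with a pseudocount of 5 and −0.19 after thinning, and RPPH1 −0.079 with a pseudocount of 5. No paired analysis was possible because the recovered libraries carry no replicate number.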
